A study of Mus musculus with 2 samples.

Results

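Splicing factors and neuronal RNA-binding proteins were examined in dorsal root ganglion (DRG) neuron preparations as 8 gene families: the SR proteins (Srsf), the heterogeneous nuclear ribonucleoproteins (Hnrnp), and the Ptbp, Rbfox, Nova, Celf, Mbnl and Elavl families. Members were chosen by gene symbol alone, and every match was kept, which gave 52 of 24411 genes and 143 of 35034 transcript rows. The DRG is the ganglion that holds the cell bodies of the sensory neurons of the trunk and limbs. Male C57BL/6 mice (C57BL/6J in the study's methods) 6 to 8 weeks old received alum, an aluminium adjuvant, or alum + KLH (keyhole limpet hemocyanin, a protein antigen) by intraperitoneal injection on days 0 and 14, and the DRGs were taken on day 28. Thoracic and lumbar DRGs of 10 mice per group were digested, enriched for neurons over a cushion of albumin and depleted of B lymphocytes with beads, and the RNA of the pooled neurons gave 1 library per group. The label of the control library reads both naïve and alum alone, and it is called the alum pool here. Because each group is a single library, the spread between mice is unknown, no difference has a replicate check, and the immunization was not tested. Values are TPM, a relative abundance corrected for transcript length, in which the values of a library sum to 1000000. TPM was summed per gene, and a gene above 3 TPM was counted as detected.

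Pre-messenger RNA is cut and joined by the spliceosome, and the proteins described here steer which exons it keeps. SR proteins mostly bind exons and favour their use, whereas many hnRNPs favour skipping. In neurons a further layer comes from the Rbfox, Nova, Celf, Mbnl, Ptbp2 and neuronal Elavl proteins, not all of which are particular to neurons. They bind short sequence motifs beside or within alternative exons and also act on RNA stability, transport and translation. Many of these genes splice their own transcripts.

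The preparations carried the transcripts of sensory neurons together with those of glia. All 8 pan-neuronal markers and all 6 sensory neuron markers were above 3 TPM in both pools, as were 5 of 6 Schwann cell and 4 of 4 satellite glia markers. None of the 5 macrophage and none of the 3 B lymphocyte markers passed 3 TPM, with summed levels of 4.02 and 0.697 TPM in the alum pool and 3.76 and 0.186 TPM in the alum + KLH pool. Among 3 endothelial markers 1 passed (summed level 6.88 and 4.68 TPM), and among 3 fibroblast markers 2 passed (75.4 and 76.1 TPM). In such bulk samples a lower value can come from fewer cells of a type or from less RNA per cell, and these cannot be told apart. TPM keeps no read counts, so the reads behind a value cannot be had from the files and no interval was computed. Summed levels were 14849 and 14567 TPM for the pan-neuronal, 7054 and 6589 TPM for the sensory neuron, 2170.2 and 2130.1 TPM for the Schwann cell and 1414 and 1299.7 TPM for the satellite glia markers.

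Of the 52 genes, 49 were above 3 TPM in both pools (94.2%), against 46.9% of all genes in the alum pool and 46.3% in the alum + KLH pool. In both pools 45 genes exceeded 10 TPM and 30 exceeded 100 TPM. The median level was 126 TPM in the alum pool and 121 TPM in the alum + KLH pool, whereas the 11648 genes that passed 3 TPM in the alum pool, the alum + KLH pool or both had medians of 24.2 and 23.5 TPM. Together the 52 genes summed to 9436 and 9782 TPM, or 0.944% and 0.978% of each library. The plot of levels by family shows that the range within a family was far wider than the gap between the pools.

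**Figure D1:**
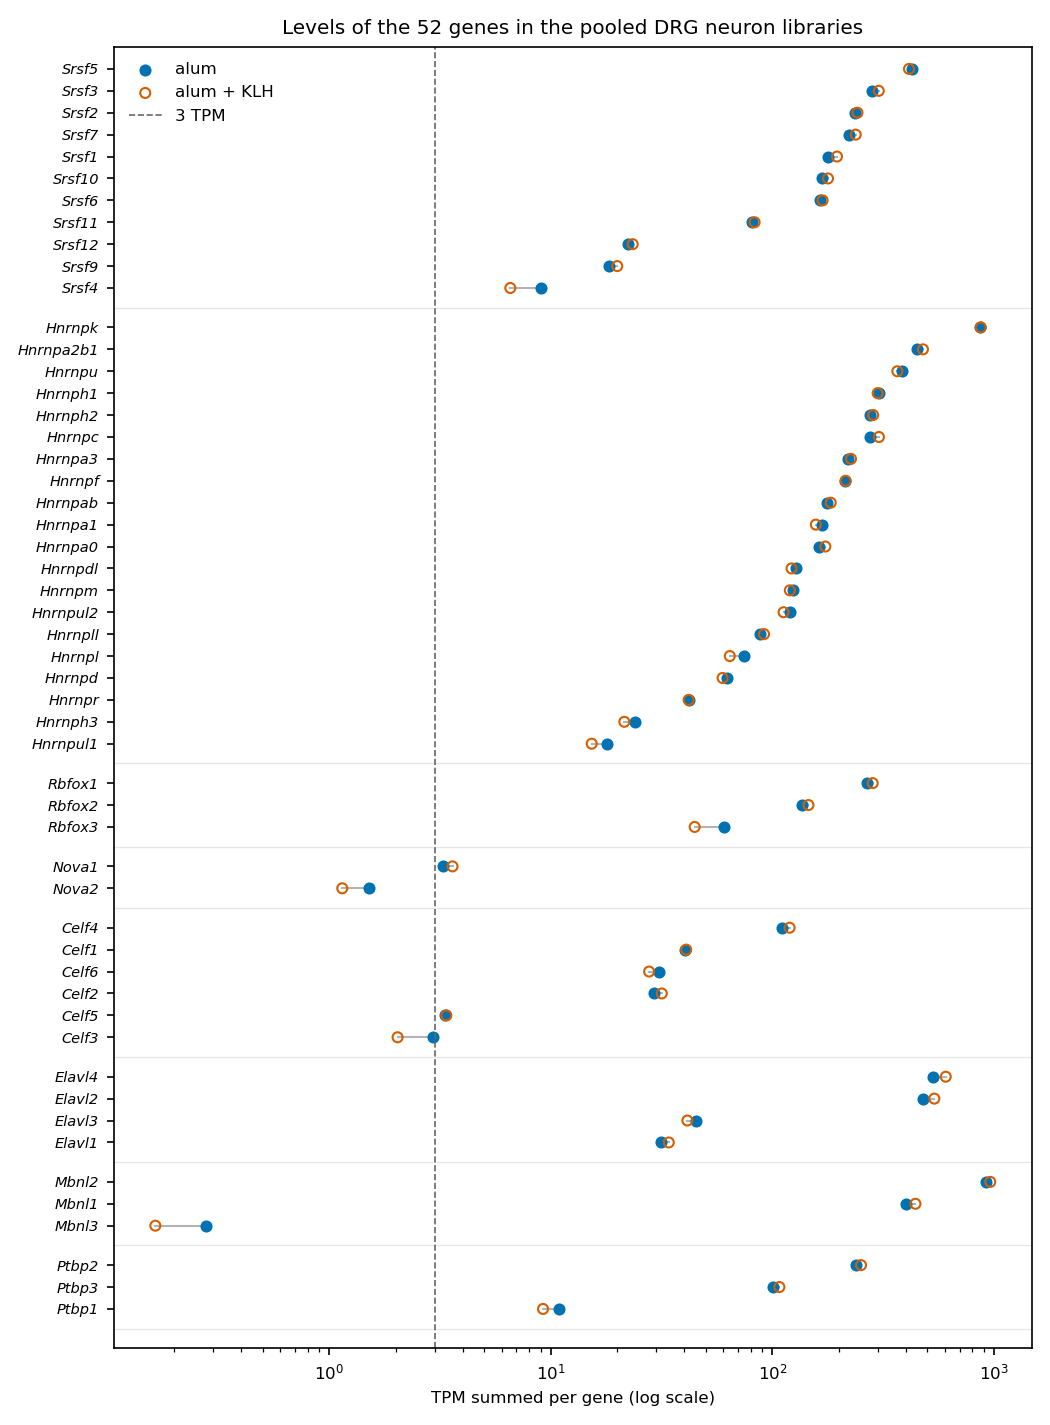
TPM summed per gene on a log scale for the 52 genes, grouped by family and sorted by level, in the alum pool (filled) and the alum + KLH pool (open), 1 library each. Mbnl2 and Hnrnpk were the highest, and Celf3, Nova2 and Mbnl3 lay below the dashed line at 3 TPM in both pools.

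The 11 Srsf genes, which encode the classical SR proteins and their closest relatives, were all detected, with a summed level of 1809 TPM in the alum pool and 1873 TPM in the alum + KLH pool. Srsf5 was the highest at 428 and 414 TPM in the same order. Srsf3, which also serves in mRNA export, followed at 281 and 302 TPM. Srsf2, a shuttling-deficient SR protein that stays in the nucleus, stood at 236 and 242 TPM. Srsf1, the founding member of the family, had 179 and 196 TPM (log2 ratio 0.13). The middle of the family comprised Srsf7 (223 and 238 TPM), Srsf10, Srsf6, Srsf11 and Srsf12 (22.2 and 23.4 TPM), each with a log2 ratio of at most 0.10. The last 2 were Srsf9 at 18.3 and 20.0 TPM and Srsf4 at 9.06 and 6.57 TPM. The log2 ratio of the summed level was 0.05, and it turned to -0.03 when TPM was taken relative to Hprt, a housekeeping gene.

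The 20 Hnrnp genes made up the largest summed level, 4182 and 4209 TPM (log2 ratio 0.01, or -0.08 relative to Hprt). Hnrnpk, a poly(C)-binding protein of many roles, was the highest with 870 TPM in the alum pool and 873 TPM in the alum + KLH pool. Hnrnpa2b1, which binds RNA transport signals in neurons, had 450 and 479 TPM. Hnrnpu, a nuclear scaffold protein, had 386 and 367 TPM. These 3 genes, the highest of the family, differed between the pools by no more than 0.09 on the log2 scale. Hnrnpl, which binds CA-rich RNA, was at 74.2 and 64.3 TPM (log2 ratio -0.20), and its relative Hnrnpll was at 88.2 and 91.7 TPM (0.06). Hnrnpul1 had 17.9 and 15.3 TPM (log2 ratio -0.21), and Hnrnpc, a nuclear protein that binds uridine tracts, had 277 and 303 TPM (0.13). The other Hnrnp genes ranged in the alum pool from 24.0 TPM (Hnrnph3) to 302 TPM (Hnrnph1), with log2 ratios from -0.15 (Hnrnph3) to 0.09 (Hnrnpa0).

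Ptbp genes encode pyrimidine tract binding proteins that repress exons, and neurons are known to replace Ptbp1 with Ptbp2. Ptbp2 stood at 240 TPM in the alum pool and 251 TPM in the alum + KLH pool, and Ptbp1 at 10.9 and 9.23 TPM, so that Ptbp2 exceeded Ptbp1 by 22.0-fold and 27.3-fold. Ptbp3, first described in blood cells, had 101 and 108 TPM. Ptbp1 is also a gene of glia and other dividing cells, and glial markers were present as given above, so the cell of origin of its transcripts was not tested.

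Rbfox proteins bind the sequence GCATG and activate or silence exons by whether it lies after or before them. Rbfox1 was the highest at 267 and 284 TPM, followed by Rbfox2 at 136 and 146 TPM. Rbfox3 encodes NeuN, the nuclear protein by which the study stained neurons, and it stood at 60.8 TPM in the alum pool and 44.6 TPM in the alum + KLH pool. Rbfox3 thus held 13.1% of the family's level in the first pool and 9.41% in the second. The summed Rbfox level was 464 and 474 TPM (log2 ratio 0.03, turning to -0.05 relative to Hprt and to -0.05 without Rbfox1).

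The Nova genes, whose proteins bind YCAY clusters and are classical regulators of synaptic exons in the brain, were near or below the detection threshold. Nova1 had 3.26 and 3.60 TPM, and Nova2 had 1.51 and 1.15 TPM. Celf proteins bind GU-rich RNA, and 5 of the 6 were detected. Celf4, a regulator of neuronal excitability, led with 111 TPM in the alum pool and 120 TPM in the alum + KLH pool, ahead of Celf1 (40.3 and 40.9 TPM), Celf2 (29.1 and 31.7 TPM) and Celf6 (30.7 and 27.8 TPM). Celf5 lay just above the threshold at 3.33 and 3.38 TPM, and Celf3 just below it at 2.94 and 2.04 TPM. The summed Celf level of 217 and 225 TPM gave a log2 ratio of 0.05, which was -0.03 relative to Hprt and -0.01 without Celf4.

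Muscleblind-like proteins bind YGCY motifs and are the factors sequestered by repeat RNA in myotonic dystrophy. Mbnl2, the member known for its role in the brain, was the highest of all 52 genes with 921 TPM in the alum pool and 963 TPM in the alum + KLH pool, so that only 0.504% and 0.479% of all genes were higher. Mbnl1 had 402 and 443 TPM (log2 ratio 0.14). Mbnl3, a gene of developing muscle, was the lowest of the set at 0.277 and 0.164 TPM. The summed level was 1323 and 1406 TPM, with a log2 ratio of 0.09 that shrank to 0.00 relative to Hprt.

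Elavl genes encode Hu proteins, which bind AU-rich elements and stabilize mRNAs of growth and plasticity. Elavl4 (HuD) had 530 TPM in the alum pool and 607 TPM in the alum + KLH pool (log2 ratio 0.19), and Elavl2 (HuB) had 479 and 539 TPM (0.17). Elavl3 (HuC) was far lower, at 45.4 and 41.4 TPM (-0.13), and the widely expressed Elavl1 (HuR) was at 31.5 and 34.1 TPM. The 3 neuronal members together exceeded Elavl1 by 33.4-fold and 34.8-fold. The summed Elavl level of 1086 and 1221 TPM gave the largest log2 ratio of the families, 0.17, which was 0.08 relative to Hprt and 0.14 without Elavl4.

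The pools were compared as alum + KLH over alum. With 1 library per group, an effect of KLH cannot be told apart from other differences between the pools or libraries. Each ratio is the log2 of TPM with 1 added, alum + KLH over alum, and understates the change of low genes. None of the 49 detected genes was 2-fold apart, where 1.64% of the 11648 genes were. None had a log2 ratio of 0.32 or more, against 2.29% of all, and 2 had a log2 ratio of -0.32 or less (4.08%), against 5.39% of all. Those 2 were Rbfox3 and Srsf4, and their share was thus near the background. The log2 ratios ran from -0.44 for Rbfox3 to 0.19 for Elavl4, with an SD across the 49 genes of 0.13 against 0.39 across all tested genes, which include many genes of low level.

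**Figure D2:**
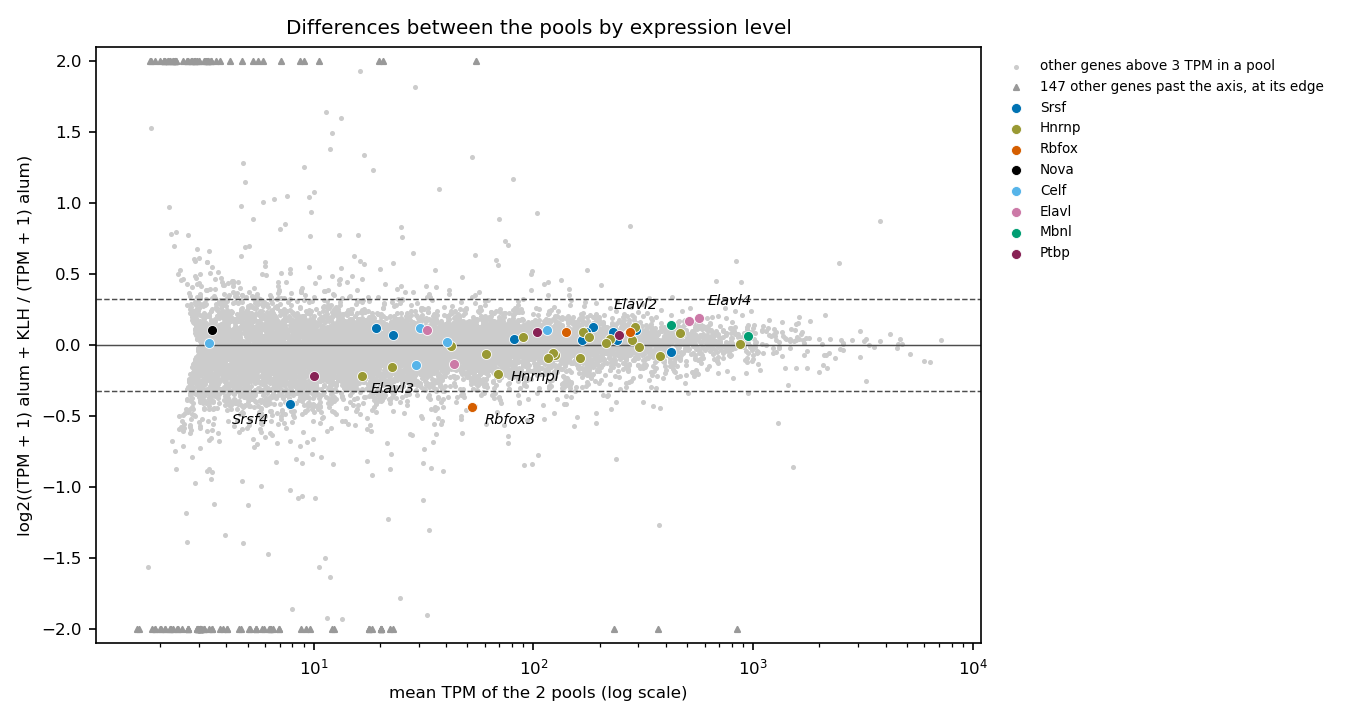
Log2 ratio of the pools (alum + KLH over alum, 1 TPM added to each) against mean TPM on a log scale, for the 49 detected members by family and the other genes above 3 TPM in a pool. Dashed lines mark a log2 ratio of 0.32 either way. Rbfox3 and Srsf4 lay below the lower line and no member lay above the upper one.

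More members were higher than lower in the alum + KLH pool. The log2 ratio was above 0 for 32 and below 0 for 17 of the 49 genes (65.3% higher, against 43.6% of all tested genes), with a median of 0.04 against -0.02. Relative to Hprt, which itself stood at 989 and 1049 TPM, 18 of the 49 were higher and the medians were -0.04 for the members and -0.10 for all tested genes. The split also varied with level. Among the 2155 genes with a mean above 100 TPM 56.3% were higher, and of the 30 members in that range 23 were higher (76.7%). The direction of a single gene within these narrow limits therefore depended on the scale.

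To set each gene against others of its level, its log2 ratio was compared with the SD of the ratio over the 500 genes closest in mean level. By this description 5 of the 49 genes lay past their neighbours' SD (10.2%), against 17% of all tested genes. Elavl4 (0.19, neighbour SD 0.16) and Elavl2 (0.17, neighbour SD 0.16) lay above it, though 7.6% and 11% of their neighbours were at least as far apart. Elavl3 (-0.13, neighbour SD 0.12), Hnrnpl (-0.20, neighbour SD 0.15) and Rbfox3 lay below it. For Elavl3 and Hnrnpl, 19.6% and 7.8% of the neighbours were at least as far apart.

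Rbfox3 (chr11:118489762-118911597, minus strand, GRCm38) stood farthest from its neighbours. Its neighbours had an SD of 0.13 against its log2 ratio of -0.44, and 0.6% of the 500 neighbours were at least as far apart. Its main row NM_001285438 had 54.3 TPM in the alum pool and 37.8 TPM in the alum + KLH pool. Of the 8 pan-neuronal markers 7 were lower and 1, Snap25, was higher in the alum + KLH pool, with log2 ratios from -0.27 (Prph) to 0.08 and a median of -0.07. Of the 6 sensory neuron markers 4 were lower and 2, Isl1 and Pou4f1, were higher, with a median log2 ratio of -0.10. The satellite glia marker Apoe had -0.52, beside medians of -0.07 for the satellite glia and -0.06 for the Schwann cell markers. The part of cell composition in the Rbfox3 value was not tested.

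Srsf4 (chr4:131873617-131901706, plus strand) was the other gene past -0.32, with a log2 ratio of -0.41. At its low level the neighbour SD was 0.52, and 6% of its neighbours were at least as far apart. It also shared 66.5% of the 31-base stretches of its transcript, counted in either orientation, with the annotated gene Gm12992. If both were in the transcript set that the authors used, reads of a shared strand could be divided between them. Ptbp1, at a log2 ratio of -0.22, had a neighbour SD of 0.35 and 19.6% of its neighbours as far apart, and it shared 33.2% of its 31-base stretches with other genes.

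The log2 ratio varied with the base composition of the transcripts. Across 11440 tested genes with a matched transcript (98.2%), Spearman's correlation of GC content with the log2 ratio was -0.46 (Pearson -0.19), and across the 49 members it was -0.47 (Pearson -0.53). These are correlations across genes of the same 2 libraries, and genes are not independent replicates. With the genes cut into 5 equal groups by GC, the median log2 ratio of all genes ran from 0.05 in the group of lowest GC to -0.15 in the group of highest GC. The members were AT-rich, with a median GC content of 44.9% against 48.7%, and 19 of the 49 fell in the group of lowest GC, of which 15 were higher in the alum + KLH pool, where 70.2% of all genes in that group were. None of the 4 members in the group next to the highest was higher in that pool, against 30.6% of all genes there. In the group of highest GC 5 of the 9 members were higher, with a median log2 ratio of 0.02, against 16.3% of all genes, with a median of -0.15.

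**Figure D3:**
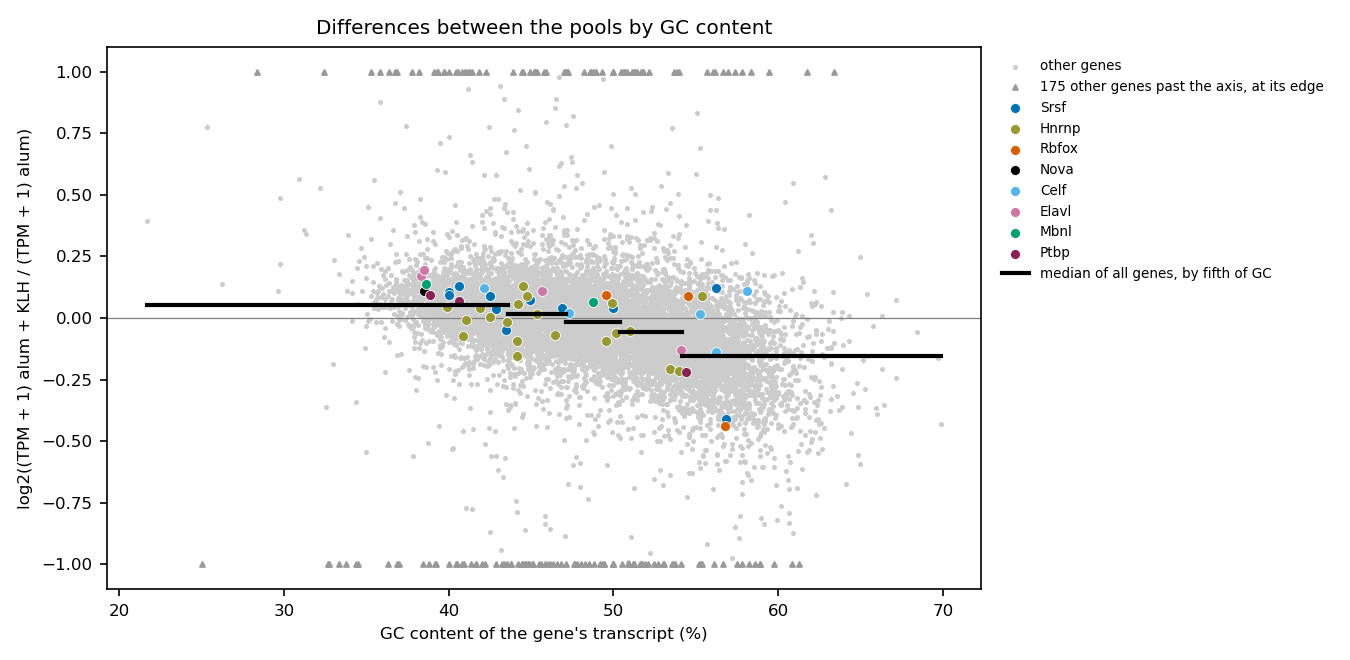
Log2 ratio of the pools (alum + KLH over alum, 1 TPM added) against the GC content of the transcript of each gene's highest row, for the members by family and the other tested genes. Black bars give the median of all genes in each of 5 equal groups by GC content, from 0.05 to -0.15. Rbfox3 and Srsf4 lay below the bar of the group of highest GC.

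Taken relative to the 500 genes closest in GC content, the median of the members was 0.02, with 29 higher and 20 lower. Rbfox3, with a GC content of 56.7%, then had a log2 ratio of -0.28, and Srsf4, with 56.8%, had -0.25, so that neither was past -0.32. Elavl4 and Elavl2, AT-rich at 38.5% and 38.3% GC, had 0.11 and 0.09. Celf4 and Srsf9, GC-rich genes at 58.1% and 56.2%, moved up to 0.30 and 0.27. The Celf4 figure rests on a matched transcript of 1729 bases. The matched transcripts of other Celf4 rows had from 49.3% to 55.6% GC, so the value depends on the transcript matched. Whether composition set the differences between the pools was not tested.

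In 18 of the 52 genes more than 10% of the 31-base stretches of the transcript occurred in annotated transcripts of other genes. In 20 genes less than 1% did (median 2.86%). The like shares over all genes were not computed. Stretches were counted in either orientation, although the libraries were stranded, so those shared only with the opposite strand were not set apart. The highest shares were 69.5% for Hnrnpf, 66.5% for Srsf4, 54.7% for Hnrnpa1, 46.9% for Hnrnpk and 40.1% for Hnrnph2. Rbfox1, Rbfox3, Elavl2, Elavl4, Mbnl1 and Ptbp2 shared none. For genes with high shares the level is uncertain, since reads could be divided between genes if those were in the authors' transcript set. Whether they were was not examined.

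Transcript rows show which versions of these factors the counting assigned. Of the 52 genes 31 had several rows, up to 9 for Rbfox2, and 142 of the 143 rows matched an annotated GENCODE M21 transcript on GRCm38, some of them sharing 1. Rows of a gene differ at several places at once, at their ends as well as at the exon named, and TPM divides by the length of each row. A share of TPM on rows with an exon is thus a property of the assignment and not a direct count of reads across the exon. The exons below were chosen after their values were seen.

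Both muscleblind genes carry a 54-base cassette exon that is known to favour nuclear localization and that these proteins themselves regulate. It is shown because rows without it held nearly all of the Mbnl2 level. The Mbnl1 exon is at chr3:60614683-60614736 (plus strand) and the Mbnl2 exon at chr14:120395712-120395765 (plus strand), and capitals mark the 8 positions at which the 2 differ.
Mbnl1 54-base exon: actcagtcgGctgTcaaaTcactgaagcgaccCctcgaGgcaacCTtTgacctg
Mbnl2 54-base exon: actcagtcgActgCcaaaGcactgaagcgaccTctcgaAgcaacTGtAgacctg
In Mbnl2 the row with this exon, NM_175341, had 24.6 TPM in the alum pool and 16.3 TPM in the alum + KLH pool, and the row without it, NM_207515, had 896 and 947 TPM. The exon was thus on 2.67% and 1.69% of the Mbnl2 level. These rows also differ in length, at 4552 bases with the exon and 2390 without it in the matched transcripts. In Mbnl1 the row with the exon, NM_001253711, had 81.2 and 86.5 TPM, which was 20.2% and 19.5% of that gene. The 2 paralogs therefore differed in the share of this exon in both pools.

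Rbfox1 and Rbfox2 each have a pair of alternative exons of 40 and 43 bases, known as the brain and muscle types after the tissues where they were described, which give proteins with different C-terminal parts. They are shown because the rows of the 2 genes divided differently between them. The 40-base exons lie at chr16:7363865-7363904 (Rbfox1, plus strand) and chr15:77094451-77094490 (Rbfox2, minus strand), and the 43-base exons at chr16:7369801-7369843 and chr15:77091812-77091854. Capitals mark where the paralogs differ within each type, at 6 positions of the 40-base and 16 of the 43-base exon.
Rbfox1 40-base exon: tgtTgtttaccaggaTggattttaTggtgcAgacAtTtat
Rbfox2 40-base exon: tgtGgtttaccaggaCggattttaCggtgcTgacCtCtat
Rbfox1 43-base exon: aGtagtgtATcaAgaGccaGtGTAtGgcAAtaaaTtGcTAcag
Rbfox2 43-base exon: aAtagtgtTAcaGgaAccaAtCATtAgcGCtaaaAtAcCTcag
Of the Rbfox1 level 98.4% in the alum pool and 98.6% in the alum + KLH pool lay on the row with the 43-base exon, NM_183188 (262 and 280 TPM), and the row with the 40-base exon, NM_021477, had 4.28 and 3.89 TPM. The matched transcripts of these rows have 1407 and 3061 bases and differ at both ends as well. In Rbfox2 the rows with the 40-base exon held 56.4% and 61.4% and those with the 43-base exon 43.1% and 38.6%. In both pools the 43-base type led in Rbfox1 and the 40-base type in Rbfox2.

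A 93-base exon of Rbfox3 encodes part of its RNA recognition motif, and skipping of the like exon is known to give Rbfox proteins with weak RNA binding. Rows with it held 98.7% and 98.8% of the Rbfox3 level. The lower Rbfox3 level in the alum + KLH pool lay mostly on the row NM_001285438, whereas NM_001039168 had 2.17 TPM in the alum pool and 4.51 TPM in the alum + KLH pool, and NM_001039167 had 3.47 and 0.105 TPM.

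Elavl2 and Elavl4 share a 39-base exon in the linker before the third RNA recognition motif, a stretch in which Hu protein variants are known to differ. It is shown because the rows of the 2 genes split differently on it. The Elavl2 exon is at chr4:91254141-91254179 and the Elavl4 exon at chr4:110209740-110209778, both on the minus strand, with the 6 differing positions in capitals.
Elavl2 39-base exon: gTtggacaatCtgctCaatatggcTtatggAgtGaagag
Elavl4 39-base exon: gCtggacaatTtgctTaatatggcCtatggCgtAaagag
In Elavl2 the rows with the exon held 96.1% of the level in the alum pool and 97.3% in the alum + KLH pool. In Elavl4 they held 50.5% and 48.4%, and the row without it, NM_001163397, had 263 and 313 TPM. The largest row of Elavl2, NM_001177883, had 361 and 425 TPM (log2 ratio 0.23, neighbour SD over rows 0.13).

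SR protein genes carry cassette exons with early stop codons, and transcripts that include them are known to be degraded by nonsense-mediated decay, a feedback by which SR proteins limit their own level. Both Srsf3 and Srsf7 had a noncoding row with such an exon, of 456 bases at chr17:29039454-29039909 (plus strand) and 460 bases at chr17:80204622-80205081 (minus strand). The start of each exon up to its first in-frame stop codon, in capitals, lies at chr17:29039454-29039487 and chr17:80205054-80205081.
Srsf3 exon start: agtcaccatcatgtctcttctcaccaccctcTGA
Srsf7 exon start: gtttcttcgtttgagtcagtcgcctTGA
The Srsf3 row with the exon, NR_036613, had 17.9 TPM in the alum pool and 11.1 TPM in the alum + KLH pool, against 263 and 291 TPM on the coding row NM_013663. Its share of the gene was 6.39% and 3.69%. The Srsf7 row, NR_036615, had 55.5 and 44.2 TPM, a share of 24.9% and 18.6%. Both noncoding rows were lower and the gene totals higher in the alum + KLH pool (log2 ratio of the gene totals 0.11 and 0.10), each by less than 2-fold.

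Altogether 6 rows of the members were noncoding, and 5 of them were above 3 TPM in both pools. They summed to 220.2 and 231.7 TPM, or 2.33% and 2.37% of the members' level. GENCODE marks 4 of these as targets of nonsense-mediated decay. Besides the 2 SR rows these were NR_104468 of Hnrnpa2b1, with 115 TPM in the alum pool and 142 TPM in the alum + KLH pool, and NR_104427 of Hnrnpa1, with 25.7 and 30.1 TPM. The 2 hnRNP rows were thus higher and the 2 SR rows lower in the alum + KLH pool. NR_036616 of Srsf9 had 4.12 and 4.37 TPM.

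**Figure D4:**
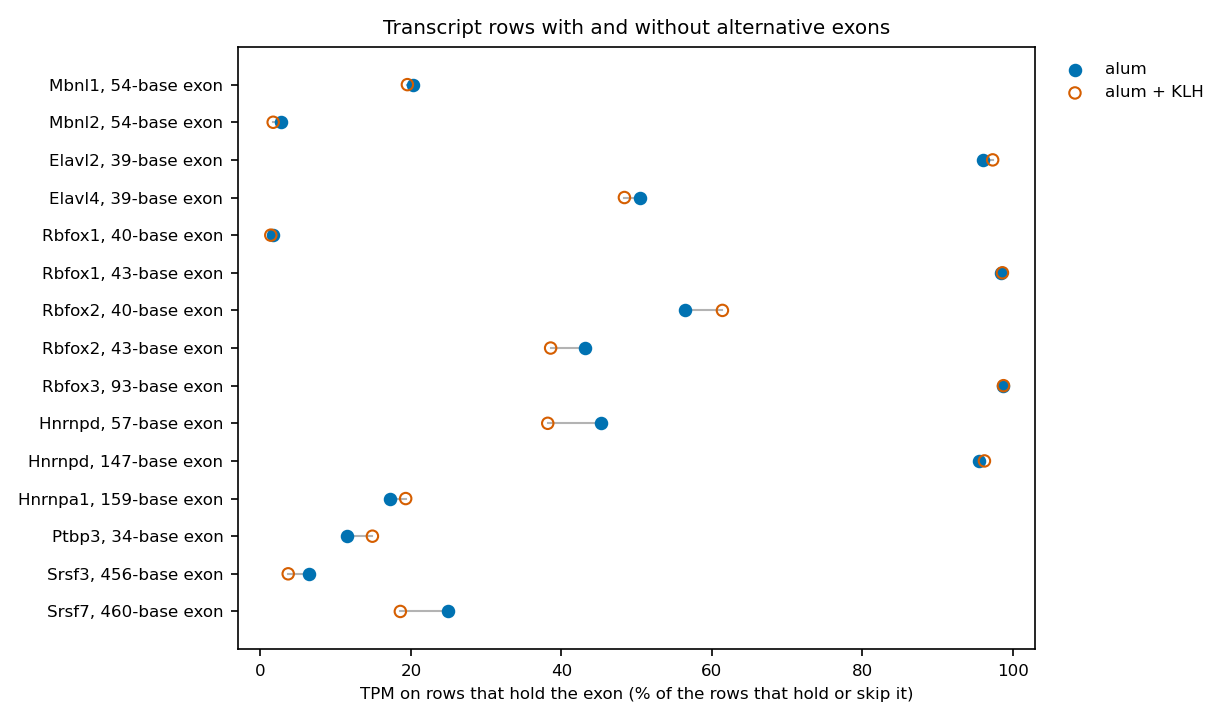
Share of TPM on rows whose matched transcript holds an alternative exon, among rows that hold or skip it (%), in the alum pool (filled) and the alum + KLH pool (open), 1 library each. The paralogs Mbnl1 and Mbnl2, Elavl2 and Elavl4, and Rbfox1 and Rbfox2 differed from each other more than the pools did, and among the 15 exons drawn the gap between the pools was widest for the Hnrnpd 57-base exon (45.3% and 38.2%) and the Srsf7 exon (24.9% and 18.6%).

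Shares of other alternative exons ran from near none to nearly all of a gene's level. In Hnrnpd, whose 4 protein isoforms arise from a 57-base and a 147-base exon, rows with the 57-base exon held 45.3% in the alum pool and 38.2% in the alum + KLH pool, and rows with the 147-base exon 95.5% and 96.2%. In Hnrnpa1 the row with the 159-base exon that gives the longer A1 protein held 17.2% and 19.3%. In Ptbp3 a 34-base exon was on 11.5% and 14.9% of the level. The Ptbp1 row with a 78-base exon, whose skipping is known to weaken the repressor, was listed at 0 in both pools, and the gene's level lay on the rows without it, NM_001283013 (6.85 and 7.93 TPM) and NM_008956 (4.04 and 1.29 TPM).

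Rows differed between the pools more than gene totals did. Of the 102 member rows above 3 TPM in a pool 7 were at least 2-fold apart (6.86%), against 4.65% of all 14215 such rows. The SD of the log2 ratio was 0.67 over the member rows and 0.53 over all rows. In 28 genes at least 2 rows passed the threshold, and in 21 of these some rows were higher and others lower in the alum + KLH pool. The opposite rows largely cancelled in the gene totals. The like share over all genes with several rows was not computed, so whether this is particular to the members is unknown.

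**Figure D5:**
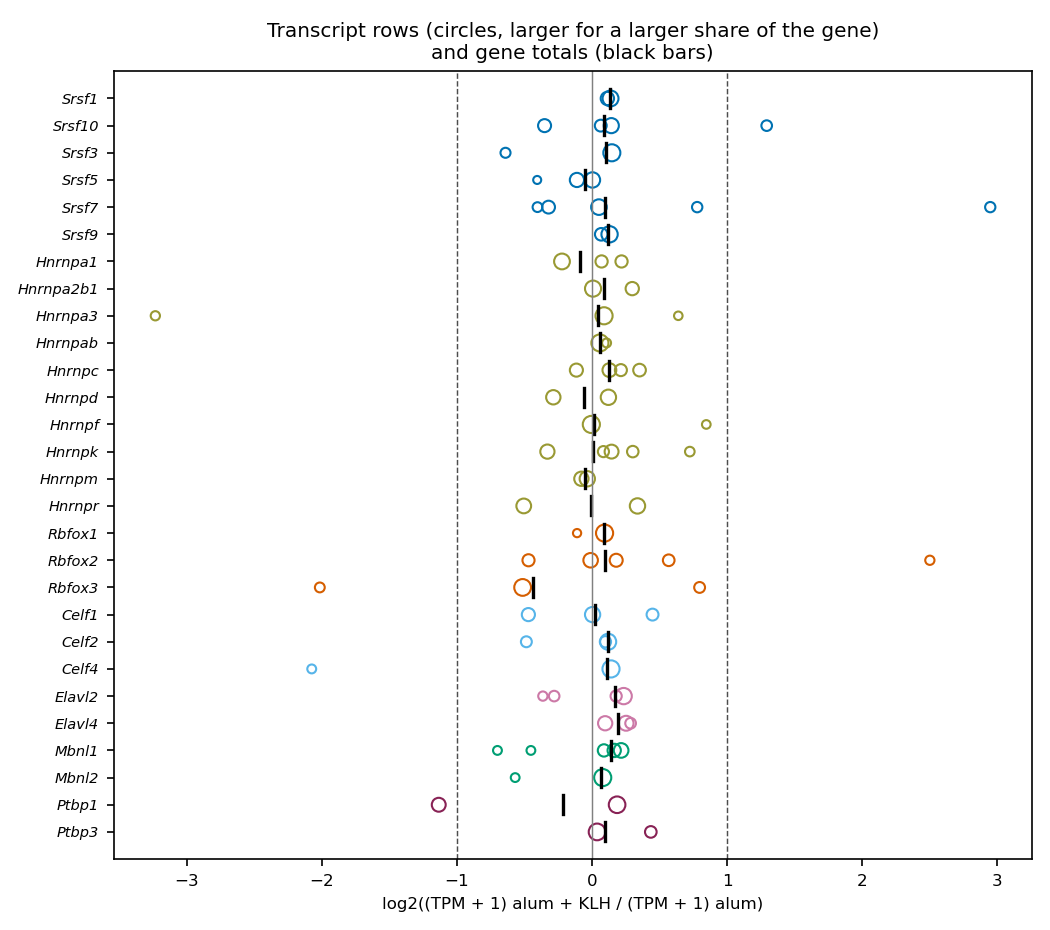
Log2 ratio of the pools (alum + KLH over alum, 1 TPM added) for rows above 3 TPM in a pool (circles, larger for a larger share of the gene, coloured by family) and for the gene totals (black bars), in the 28 genes with at least 2 such rows. Dashed lines mark 2-fold. Rows spread to both sides while the gene totals stayed between -0.44 and 0.19.

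The 5 rows farthest apart were minor versions of their genes in at least one pool. Hnrnpa3 NM_146130 had 8.40 TPM in the alum pool and 0.000442 TPM in the alum + KLH pool, while the main row NM_053263, which lacks 66 coding bases of it and has a longer last exon, had 208 and 222 TPM. Srsf7 NM_001195485 had 1.43 and 17.8 TPM, and NM_001195486, which matched the same annotated transcript, had 10.5 and 18.7 TPM. Rbfox2 NM_001286418 had 0.158 and 5.56 TPM. Celf4 NM_001146294 had 3.21 and 5.35e-09 TPM, and Rbfox3 NM_001039167 is given above. For Celf4, Rbfox2 and Rbfox3 the neighbour SD of the rows was above 2, and 54.4%, 24.4% and 57% of the 500 neighbouring rows were at least as far apart. For Srsf7 NM_001195485, with a log2 ratio of 2.95, none of the 500 neighbouring rows was as far apart (0%), and for Hnrnpa3 NM_146130 5.8% were.

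The highest row changed between the pools in 3 genes. In Hnrnpk the row NM_025279 led in the alum pool with 359 TPM and had 286 TPM in the alum + KLH pool, where NM_001301343 led with 322 TPM, from 291 TPM. The matched transcripts of these rows differ in the first exons outside the coding sequence and near the end of the coding sequence, and the gene total stayed at 870 and 873 TPM. In Hnrnpr the row NM_028871 had 20.7 and 14.3 TPM and NM_001277121 had 19.5 and 24.9 TPM, although both matched 1 annotated transcript. In Celf3 the noncoding row NR_110353 had 1.73 TPM in the alum pool and 0.000252 TPM in the alum + KLH pool, and NM_001289620 had 1.05 and 1.72 TPM. With the highest row of each pool in place of the total, the log2 ratio of Hnrnpk moved from 0.01 to -0.16. That value sets NM_001301343 in the alum + KLH pool over NM_025279 in the alum pool. Those rows themselves had log2 ratios of 0.15 and -0.33. For Ptbp1, with NM_001283013 highest in both pools, the log2 ratio moved from -0.22 to 0.19.

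Genes that work with these factors were followed in 6 lists of 100 genes in all, of which 89 were above 3 TPM in both pools. None of the 89 was 2-fold apart, against 1.64% of all tested genes, or had a log2 ratio of 0.32 or more, against 2.29%. A log2 ratio of -0.32 or less was found for 4 of the 89, against 5.39% of all tested genes. Those were Clk2, Pcbp4, Pura and Snrpa, all under 10 TPM. After rescaling by the median ratio of all detected genes 3 of them remained, against 4.79% of all genes. Relative to Hprt there were 6 genes, against 9.51%. The median log2 ratio was -0.03, against -0.02 for all tested genes. All 10 SR-like coactivators were detected, led by Tra2b (263 and 286 TPM), an SR-like protein that activates neuronal exons. Of the SR protein kinases 6 of 7 were detected, led by Clk1 (138 and 131 TPM), which phosphorylates SR proteins.

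Of 24 other splicing regulators 19 were detected. Matr3, a nuclear matrix protein, led with 408 and 420 TPM, and the epithelial splicing factors Esrp1 and Esrp2 were listed at 0 in both pools. Of 22 RNA-binding proteins of mRNA transport and translation 19 were detected, with a median log2 ratio of 0.06 and G3bp2, a stress granule protein, highest at 618 and 667 TPM. Of 33 core spliceosome genes 31 were detected, with a median log2 ratio of -0.06 and Snrpn, the neuronal form of the SmB protein, highest at 470 and 413 TPM.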

How the data were processed

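Each of the 2 groups was 1 library of RNA from the pooled DRG neurons of 10 mice. The authors prepared stranded mRNA libraries, trimmed paired-end reads and quantified them with kallisto against mouse transcripts, with mm10 named as the build. The deposited unit is TPM per RefSeq row, so read assignment among similar sequences is contained in them, and the files give no read counts. Rows were summed per gene, 1 TPM was added before the log2 ratio, and genes that passed 3 TPM in either pool or both were compared. Each ratio was set beside the SD over the 500 genes (or rows) closest in mean log2(TPM + 1). Exons, GC content and 31-base stretches came from GENCODE M21 (GRCm38, the assembly of mm10), with python 3.11.15, numpy 2.4.6 and pandas 2.3.3. The code was tested on simulated data. Named genes were the 3 highest of each family, every Rbfox, Nova, Elavl and Ptbp gene, genes at or below 3 TPM, the 5 highest and 5 lowest ratios and the highest of each related list. A few of these values are not reported here. Members and lists were chosen with earlier results of these data known. Alternatives were pseudocounts of 0.1 and 0.5 TPM and thresholds of 1 and 10 TPM or none. Others were rescaling by the median ratio, Hprt, the highest row of each pool, and noncoding rows left out. The GC comparison was added after seeing the data.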

Additional observations from a re-analysis of the deposited data

How the results depend on the processing

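No paired analysis was possible because each group is 1 pooled library, and for the same reason no replicate could be left out. The number of members with a log2 ratio of -0.32 or less was 2 of 49, against 5.39% of all genes. With a threshold of 10 TPM, which Srsf4 did not reach, it was 1 of 46 (Rbfox3), against 3.43%. Relative to genes of like GC content, a comparison added after seeing the data, it was 0, and the share over all genes was not computed. With a threshold of 1 TPM it was 3 of 51, with Celf3 added, against 6.34% of all genes. Without a filter it was 3 of 52, against 4.34%. The count of member rows at least 2-fold apart went from 7 of 102 to 2 of 83 with a threshold of 10 TPM. The called rows of Celf4, Rbfox3, Ptbp1, Rbfox2 and Hnrnpa3 did not reach that threshold in either pool. Of all rows 1.69% were then 2-fold apart. With a pseudocount of 0.1 TPM the count was 9 of 102 member rows, against 5.52% of all rows. The other 80 summary values stayed within the neighbour SD or within 1.5 times the count. They cover the detected genes, the counts 2-fold apart and at 0.32 or more, the medians, the family totals and the related genes. The neighbour SD is that of single genes (median 0.16), a wide limit for medians and totals, so changes of sign were not counted. Relative to Hprt the median of the members went from 0.04 to -0.04. The Srsf, Hnrnp, Rbfox, Celf and Ptbp totals also turned from above to below 0. Of 207 values of named members 4 moved past the neighbour SD. Relative to GC these were Celf4 (0.30) and Rbfox3 (-0.28), and on the highest row of each pool Hnrnpk (-0.16) and Ptbp1 (0.19). The cause was not tested. The neighbour SD is wide beside most of these ratios, and wider for low genes, so a change of sign could go uncounted. Relative to Hprt, for example, Mbnl2 went from 0.07 to -0.02 and Ptbp2 from 0.07 to -0.02. Neither was counted as moved. Celf3, with a neighbour SD of 0.97, went from -0.37 to 0.47 with noncoding rows left out and was not counted as moved. Some settings could not change a value, such as the highest row of a gene with a single row. The lack of counts limits what can be said of rows below 10 TPM.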
